A study of Mus musculus with 18 samples.

Results

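The genes described here are 36 genes of the cell cycle and of DNA replication, chosen by symbol from a table of TPM values (levels normalized for transcript length and library total) for 35976 gene symbols in mouse colon. All 36 were in the table, and all 36 were among the 14129 genes tested, which had 6 or more libraries at a TPM of 1 or above. RNA came from colon collected on day 2 after the start of colitis, in 18 libraries of 3 groups of 6. The ISM012-042 group had colitis from TNBS, a hapten that inflames the colon, and received ISM012-042, a gut-restricted PHD (prolyl hydroxylase) inhibitor. The vehicle group had TNBS colitis and received the vehicle. The sham group had no TNBS colitis. The sources used here give no strain, sex, age, dose or number of animals. They do not say whether each library is an animal of its own, so a p-value here reflects library-to-library spread, which may be technical.

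The cell cycle is driven by cyclins and their kinases. Cyclins D and E with E2F factors start the cycle, the MCM helicase is loaded at origins and unwinds the DNA to be copied, and cyclins A and B with Cdk1 bring the cell into mitosis. In the colon most dividing cells sit in the lower crypt, where stem and progenitor cells renew the epithelium, and wounded or inflamed mucosa is known for both loss of crypts and regrowth from the crypts that remain. Immune and stromal cells can also divide in inflamed tissue. In bulk tissue, fewer cells of a type and less RNA per cell cannot be told apart.

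The members divide into 17 genes of the G1 and S phases and 19 genes of G2 and mitosis, and RefSeq promoter windows show where the sequences of these sets differ. Each window runs from 250 bases before to 50 bases after a gene start (GRCm38.p6, the assembly of mm10), and 28 of the 36 members had one, with 29 windows in all. Both strands were searched for the CHR element TTTGAA and the CCAAT box CCAAT, which are known from promoters of mitotic genes, and for the E2F site GGCGCGAA or GGCGGGAA. Different motifs overlapped at 1 place in the member windows. The following 5 windows are shown as examples, with Mki67, Top2a and Cdk1 for G2 and mitosis and Mcm5 and Mcm6, which hold an E2F site, for S phase. They are chr7:135716330-135716629 (minus strand), chr11:99024140-99024439 (minus), chr10:69352863-69353162 (minus), chr8:75109259-75109558 (plus) and chr1:128359656-128359955 (minus), each printed along its gene. Capitals mark every match, in either orientation.
Mki67: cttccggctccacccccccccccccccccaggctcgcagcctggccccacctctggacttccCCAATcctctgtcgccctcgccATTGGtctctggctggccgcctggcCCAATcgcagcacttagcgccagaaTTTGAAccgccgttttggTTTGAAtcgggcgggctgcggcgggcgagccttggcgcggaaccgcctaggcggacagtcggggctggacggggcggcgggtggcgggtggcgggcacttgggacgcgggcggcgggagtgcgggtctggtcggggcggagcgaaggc
Top2a: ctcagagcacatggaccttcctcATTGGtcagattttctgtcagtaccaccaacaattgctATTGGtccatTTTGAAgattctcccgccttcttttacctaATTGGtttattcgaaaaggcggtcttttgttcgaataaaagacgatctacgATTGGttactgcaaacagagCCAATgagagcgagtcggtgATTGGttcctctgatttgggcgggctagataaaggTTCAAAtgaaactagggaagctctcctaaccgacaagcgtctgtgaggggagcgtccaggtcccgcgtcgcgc
Cdk1: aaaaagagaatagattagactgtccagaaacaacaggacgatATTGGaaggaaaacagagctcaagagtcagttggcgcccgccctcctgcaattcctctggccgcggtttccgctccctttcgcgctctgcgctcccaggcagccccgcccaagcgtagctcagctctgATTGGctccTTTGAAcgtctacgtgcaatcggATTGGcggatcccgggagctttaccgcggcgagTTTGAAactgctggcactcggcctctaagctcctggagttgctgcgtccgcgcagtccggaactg
Mcm5: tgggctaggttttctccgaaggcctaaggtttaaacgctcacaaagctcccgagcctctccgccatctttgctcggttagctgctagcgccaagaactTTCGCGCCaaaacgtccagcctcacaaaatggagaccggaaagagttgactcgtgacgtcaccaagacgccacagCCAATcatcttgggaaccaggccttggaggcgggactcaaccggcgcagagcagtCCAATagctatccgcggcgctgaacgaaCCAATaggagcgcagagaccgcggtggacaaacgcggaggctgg
Mcm6: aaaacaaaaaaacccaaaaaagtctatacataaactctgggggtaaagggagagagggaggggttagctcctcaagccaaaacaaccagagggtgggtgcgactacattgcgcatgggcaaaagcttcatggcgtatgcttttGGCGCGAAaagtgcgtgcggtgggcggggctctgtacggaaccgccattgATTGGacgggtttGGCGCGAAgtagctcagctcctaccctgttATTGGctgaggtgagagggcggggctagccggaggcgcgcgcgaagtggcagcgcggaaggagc

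Mki67, Top2a and Cdk1 each held 2 CHR elements, and Mcm5 and Mcm6 held none. Mcm6 held 2 E2F sites and Mcm5 held 1. Over the members, the CHR element was in 11 of 15 windows of G2 and mitosis genes (73.3%) and in 1 of 14 windows of G1 and S phase genes (7.1%), against 17.9% of the 32851 windows of all genes. The CCAAT box was in 93.3% of the G2 and mitosis windows and 64.3% of the G1 and S phase windows, against 37.4% of all windows. The E2F site was in 5 of the 14 G1 and S phase windows (35.7%), those of Mcm3, Mcm5, Mcm6, Mcm7 and Rrm1, and in 0 of the 15 G2 and mitosis windows, against 2.7% of all windows. The windows of E2f1, Mcm2, Cdt1, Pcna, Rrm2 and Tyms, whose values are described below, held no match to the E2F letters searched. Only these exact letters were searched, so a window without a match is not shown to lack an E2F site. A match describes the letters of a window and is not a measured binding site. The windows of Bub1, Cenpe, Birc5 and Ccnb1 were the G2 and mitosis windows without a CHR element, and Mcm2 was the G1 and S phase member with one.

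The libraries held 12681 to 14632 genes at a TPM of at least 1. Each TPM column has the same total, so the depth behind a value is unknown and intervals for counting error are not given. The highest correlation between 2 libraries was 0.986, so no library appeared to be deposited more than once. Mitochondrial transcripts took 20.1 to 39.8% of the TPM in ISM012-042 libraries, 22.4 to 57.8% in vehicle libraries and 29.4 to 42.6% in sham libraries. The epithelial marker Epcam was at 961 to 1244 TPM under ISM012-042, 576 to 1376 TPM under vehicle and 881 to 1460 TPM in sham.

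The 36 genes moved together from library to library, and they set libraries of the same group apart more than they set the groups apart. Their summed level in ISM012-042 replicates 1 to 6 was 1013, 1437, 855, 443, 305 and 601 TPM. In vehicle replicates 1 to 6 it was 987, 1498, 231, 332, 140 and 1186 TPM. In sham replicates 1 to 6 it was 521, 520, 466, 346, 519 and 426 TPM. The sham sums thus lay close together, the ISM012-042 sums lay on both sides of them, and vehicle libraries held both the highest and the lowest sum of the study. By gene, vehicle replicate 2 was the highest of its group in 36 of 36 members and vehicle replicate 5 the lowest in 35, and ISM012-042 replicate 2 was the highest in 35 and replicate 5 the lowest in 35. In sham, replicate 4 was the lowest in 22 members, while the highest was replicate 1 in 12 members, replicate 5 in 10 and replicate 2 in 8.

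**Figure D1:**
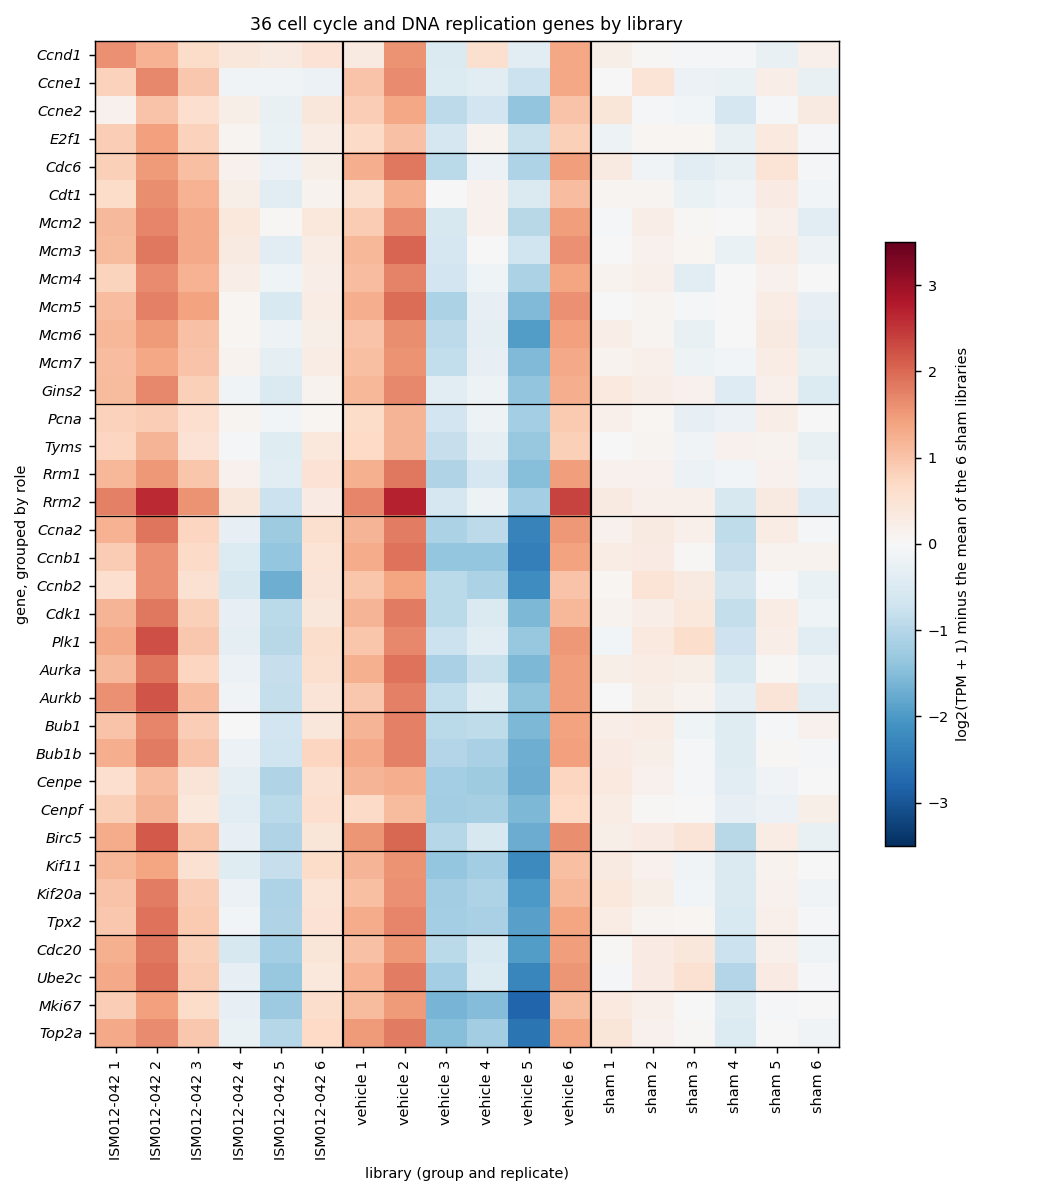
Each of the 36 genes (rows, grouped by role) in each of the 18 libraries (columns), as log2(TPM + 1) minus the mean of the 6 sham libraries. Vehicle replicates 1, 2 and 6 are above and replicate 5 is below the sham libraries over all 36 rows, and the sham columns stay near 0.

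Across the 3 comparisons no member passed the test of means, which was limma on log2(TPM + 1) with Benjamini-Hochberg adjustment over all genes tested and a threshold of 0.05. This scale understates the change of low genes. In ISM012-042 against vehicle, 0 of 36 members were called in either direction, against 0% of all genes, and 0 members had an unadjusted p under 0.05, where 18.9% of all genes were higher and 0.127% lower. In vehicle against sham, 0 of 36 members were called, against 0.326% of all genes higher and 4.13% lower, and 0 members had an unadjusted p under 0.05, against 3.16% higher and 14.9% lower. In ISM012-042 against sham, 0 of 36 were called, against 0.545% of all genes higher and 0.871% lower. Here 2 members, Ccnd1 and Mcm2, were higher at an unadjusted p under 0.05, against 16.3% of all genes, and 0 were lower, against 4.44%. The comparisons share libraries, so their values are given side by side and not as independent results. A p that misses the threshold does not show that the groups were alike. The fit pools the spread of the 3 groups, so each member has the same standard error in all 3 comparisons. The members' spread differed between groups, as described below, so the wide vehicle values also enter the standard errors of ISM012-042 minus sham. With the 2 groups fitted alone, 1 member, Ccnd1, was called higher in that comparison.

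The size of the differences was as follows. For ISM012-042 minus vehicle, 36 of 36 members were positive, with a median log2 fold change of 0.37 and a range of 0.10 (Ccne1) to 0.71 (Mki67), but 92.1% of all genes were positive too and 7.91% negative, with a median of 0.30. With median-ratio scaling, which brought the median of all genes close to 0, the members' median was 0.08 with 26 positive and 10 negative. Array weights, which count libraries far from their group for less, gave a median of -0.51 with 36 of 36 negative, and the mitochondrial share covariate gave -0.079 with 24 negative. For vehicle minus sham, 28 members were positive and 8 negative, with a median of 0.17 and a range of -0.37 (Mki67) to 0.80 (Rrm2), against a median of -0.07, 41.3% positive and 58.7% negative over all genes. This median was 0.65 with array weights and 0.72 with the Hoxb13 covariate, each with 36 of 36 positive, and 0.33 with the mitochondrial share covariate. For ISM012-042 minus sham, 36 of 36 were positive, with a median of 0.54 and a range of 0.15 (Ccnb2) to 0.98 (Rrm2), against a median of 0.21, 77.1% positive and 22.9% negative over all genes. The members' median here was 0.12 with array weights, where that of all genes was 0.13, and 0.25 with the mitochondrial share covariate, 0.34 with median-ratio scaling and 0.89 with the Hoxb13 covariate. Leaving out both libraries of highest neutrophil markers, chosen after seeing the data, gave members' medians of 0.44 for ISM012-042 minus vehicle, -0.14 for vehicle minus sham (11 positive and 25 negative) and 0.29 for ISM012-042 minus sham, with 0 calls.

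**Figure D2:**
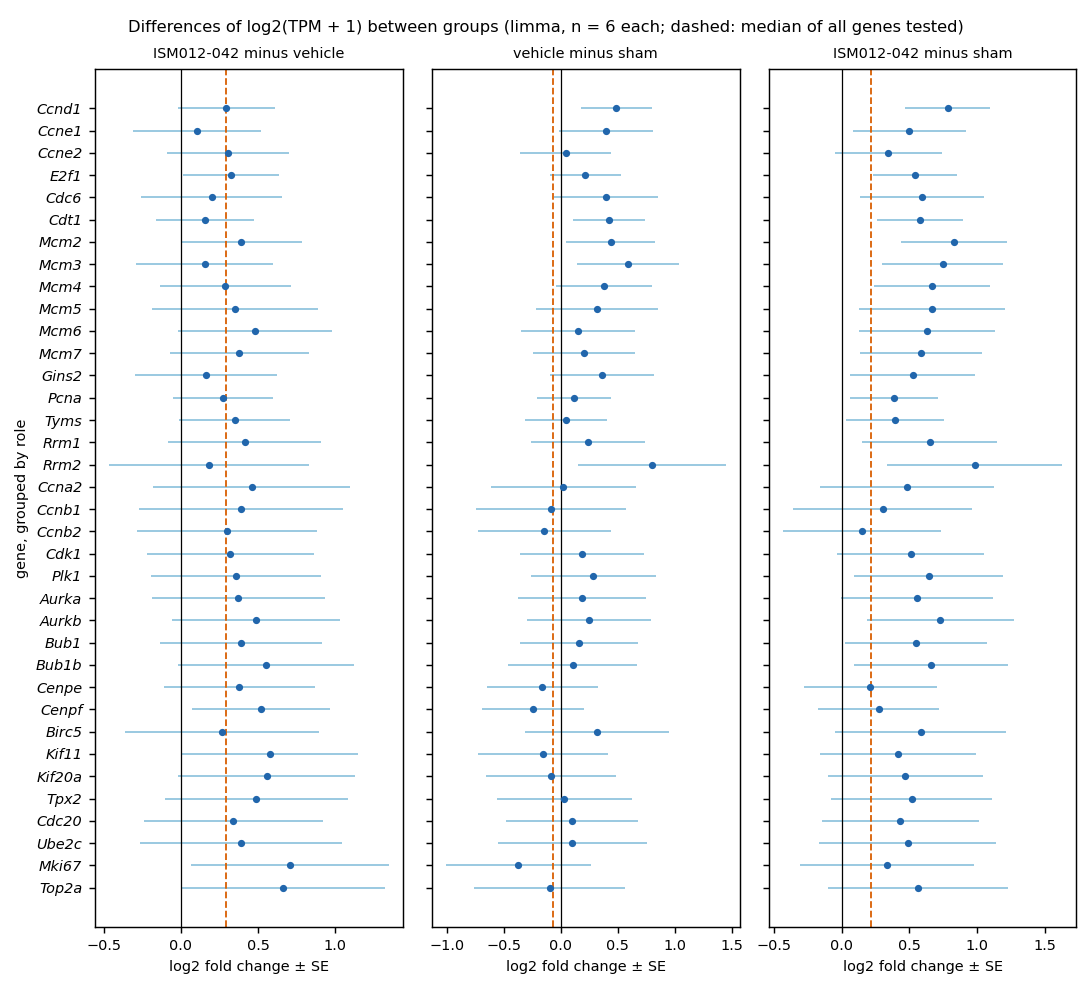
Log2 fold changes of the 36 genes with their standard errors in 3 comparisons (limma on log2(TPM + 1), n = 6 libraries a group), with the median of all genes tested as a dashed line. Every member lies right of 0 in ISM012-042 minus vehicle (26 of 36 with median-ratio scaling and 0 of 36 with array weights) and in ISM012-042 minus sham (35 and 24 of 36 under the same alternatives), and members lie on both sides of 0 in vehicle minus sham.

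Among the G1 cyclins and E2F1, cyclin D1 (Ccnd1, chr7:144929931-144939831), which partners Cdk4 and Cdk6 early in G1, was the member with groups that did not overlap. Ccnd1 was at 27.8 TPM (lowest), 33.3 (median) and 69.6 (highest) under ISM012-042, 15.1, 30.4 and 68.0 TPM under vehicle, and 18.1, 21.8 and 25.4 TPM in sham. All 6 ISM012-042 libraries were above all 6 sham libraries, a pattern that 3.80% of all genes showed in this direction and that no other member showed. In the other comparisons no member had groups that did not overlap, against 0.651% of all genes higher and 0.0212% lower in ISM012-042 minus vehicle, and 0.687% higher and 1.91% lower in vehicle minus sham. The log2 fold change of Ccnd1 was 0.29 ± 0.31 (SE) for ISM012-042 minus vehicle (adjusted p = 0.524), 0.49 ± 0.31 for vehicle minus sham (adjusted p = 0.447) and 0.78 ± 0.31 for ISM012-042 minus sham (adjusted p = 0.192, limma). The last of these passed the threshold with the 2 groups fitted alone (adjusted p = 0.0457), with array weights (0.0325) and with scaling to pan-epithelial markers (0.0491). Over all alternatives its adjusted p ran from 0.0325 to 0.346.

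E2f1 (chr2:154559400-154569892), a transcription factor that turns on S phase genes, was low in all groups. It was at 1.71, 3.68 and 7.48 TPM under ISM012-042 (lowest, median and highest), 0.836, 3.24 and 5.46 TPM under vehicle and 1.64, 2.19 and 3.004 TPM in sham, with overlap of all groups. Its log2 fold change for ISM012-042 minus vehicle was 0.33 ± 0.31 (adjusted p = 0.483). The cyclin E genes, whose products partner Cdk2 at the start of S phase, had medians of 4.27 (Ccne1) and 4.76 (Ccne2) TPM under ISM012-042, 4.43 and 4.74 TPM under vehicle and 2.64 and 3.57 TPM in sham. Ccne2 ran from 2.93 to 8.27 TPM under ISM012-042 and from 0.794 to 11.004 TPM under vehicle, against 2.12 to 5.22 TPM in sham.

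The origin licensing and helicase genes had 0 of 9 members called in any comparison. Mcm2 (chr6:88883474-88898780), a subunit of the replicative helicase, was at 7.88, 14.1 and 27.2 TPM under ISM012-042 (lowest, median and highest), 3.40, 11.7 and 25.9 TPM under vehicle and 5.53, 7.68 and 9.19 TPM in sham. ISM012-042 replicate 5 and vehicle replicates 3, 4 and 5 lay among or below the sham values, and the other libraries of both groups lay above them. The log2 fold change of Mcm2 was 0.39 ± 0.39 for ISM012-042 minus vehicle (adjusted p = 0.500) and 0.83 ± 0.39 for ISM012-042 minus sham (adjusted p = 0.238). Cdt1 (chr8:122568015-122573130), which loads the helicase with Cdc6, was at 3.77, 7.24 and 18.01 TPM under ISM012-042, 3.26, 6.84 and 13.7 TPM under vehicle and 4.17, 5.13 and 6.38 TPM in sham. It was the licensing gene of smallest p in vehicle minus sham, at 0.42 ± 0.32 (adjusted p = 0.527). The other members of the role were Cdc6, Mcm3, Mcm4, Mcm5, Mcm6, Mcm7 and the GINS subunit Gins2. Of these, Mcm5 ran from 7.24 to 39.6 TPM under ISM012-042 and from 3.15 to 45.3 TPM under vehicle, against 8.81 to 13.5 TPM in sham. Mcm6 ran from 13.4 to 45.4 TPM under ISM012-042 and from 3.24 to 49.95 TPM under vehicle, against 11.4 to 19.3 TPM in sham. The remaining licensing genes had medians of 4.08 (Cdc6) to 34.5 (Mcm7) TPM under ISM012-042 and 4.70 to 31.1 TPM under vehicle, against 2.27 to 21.7 TPM in sham.

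The clamp and nucleotide supply genes included the most abundant member. Pcna (chr2:132249286-132253180), the clamp that holds DNA polymerases on the template, was at 91.9, 126 and 179 TPM under ISM012-042, 42.3, 120 and 226 TPM under vehicle and 80.4, 101 and 116 TPM in sham. The group medians were thus close, while the vehicle libraries reached well past sham on both sides. Its log2 fold change was 0.27 ± 0.32 for ISM012-042 minus vehicle, 0.11 ± 0.32 for vehicle minus sham and 0.38 ± 0.32 for ISM012-042 minus sham, with adjusted p of 0.568, 0.899 and 0.466. Rrm2 (chr12:24708254-24714146), the small subunit of ribonucleotide reductase, had the largest difference of any member. It was at 4.56, 19.1 and 56.2 TPM under ISM012-042, 3.08, 18.6 and 59.3 TPM under vehicle and 5.40, 9.61 and 10.7 TPM in sham. The difference was 0.80 ± 0.65 for vehicle minus sham (adjusted p = 0.562) and 0.98 ± 0.65 for ISM012-042 minus sham (adjusted p = 0.364), so the standard error was large beside it. The large subunit Rrm1 ran from 10.5 to 42.4 TPM under ISM012-042 and from 4.38 to 53.05 TPM under vehicle, against 12.1 to 15.8 TPM in sham. Tyms (chr5:30038546-30073645), thymidylate synthase, ran from 5.38 to 18.5 TPM under ISM012-042, from 2.43 to 18.3 TPM under vehicle and from 6.16 to 8.43 TPM in sham, with 0.35 ± 0.36 for ISM012-042 minus vehicle (adjusted p = 0.510).

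In the mitotic cyclins and kinases, libraries of both colitis groups again lay above and below the sham range. Cdk1 (chr10:69335146-69352912), the kinase that drives entry into mitosis, was at 4.98, 16.7 and 39.9 TPM under ISM012-042, 2.80, 15.8 and 39.0 TPM under vehicle and 5.41, 11.9 and 13.7 TPM in sham. Its sham replicate 4 lay below the other sham libraries, and vehicle replicates 3 and 5 and ISM012-042 replicate 5 lay below all of them. The log2 fold changes of Cdk1 were 0.32 ± 0.54, 0.19 ± 0.54 and 0.51 ± 0.54 in ISM012-042 minus vehicle, vehicle minus sham and ISM012-042 minus sham (adjusted p = 0.683, 0.899 and 0.564). Aurkb (chr11:69045624-69051664), the kinase of the chromosomal passenger complex, was at 2.52, 9.96 and 27.9 TPM under ISM012-042, 1.37, 7.47 and 20.3 TPM under vehicle and 3.77, 5.53 and 7.64 TPM in sham. It had the smallest p of this role in ISM012-042 minus vehicle (0.48 ± 0.54, adjusted p = 0.545) and in ISM012-042 minus sham (0.73 ± 0.54, adjusted p = 0.414). Plk1 (chr7:122159435-122169884), a kinase of mitotic entry and spindle assembly, was at 2.45, 10.6 and 30.9 TPM under ISM012-042, 1.67, 8.16 and 20.6 TPM under vehicle and 3.06, 6.09 and 9.30 TPM in sham, with 0.28 ± 0.55 for vehicle minus sham (adjusted p = 0.842). Ccna2, Ccnb1, Ccnb2 and Aurka had the same order of libraries at their ends, and of these Ccnb1 (cyclin B1) ran from 3.37 to 32.9 TPM under ISM012-042 and from 1.14 to 40.6 TPM under vehicle, against 5.43 to 12.6 TPM in sham.

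Vehicle libraries also lay on both sides of sham for the checkpoint, kinetochore and passenger genes. Cenpf (chr1:189640606-189688107), a protein of the outer kinetochore, was at 1.12, 4.72 and 8.24 TPM under ISM012-042, 0.366, 3.17 and 7.87 TPM under vehicle and 2.33, 3.12 and 3.91 TPM in sham. Its log2 fold change was 0.52 ± 0.45 for ISM012-042 minus vehicle (adjusted p = 0.444) and -0.24 ± 0.45 for vehicle minus sham (adjusted p = 0.830). Bub1b (chr2:118598202-118641592), the spindle checkpoint protein BubR1, was at 2.98, 10.8 and 21.6 TPM under ISM012-042, 0.958, 8.62 and 21.0 TPM under vehicle and 3.81, 5.40 and 6.90 TPM in sham, with 0.66 ± 0.57 for ISM012-042 minus sham (adjusted p = 0.476). Birc5 (survivin), another passenger protein, ran from 10.4 to 103 TPM under ISM012-042 and from 6.07 to 95.2 TPM under vehicle, against 11.2 to 31.6 TPM in sham. Bub1 and the kinetochore motor Cenpe reached 0.260 and 0.403 TPM at their lowest, in vehicle replicate 5, against lowest sham values of 1.81 and 2.65 TPM.

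Spindle genes had vehicle values on both sides of the sham range. Kif11 (chr19:37376382-37421863), the motor that pushes spindle poles apart, was at 4.07, 12.5 and 22.1 TPM under ISM012-042, 0.911, 10.1 and 25.6 TPM under vehicle and 5.28, 8.31 and 10.1 TPM in sham. Its log2 fold change was 0.57 ± 0.57 for ISM012-042 minus vehicle (adjusted p = 0.499) and -0.16 ± 0.57 for vehicle minus sham (adjusted p = 0.922). Tpx2 (chr2:152847964-152895321), which activates Aurora A on the spindle, was at 3.07, 13.1 and 30.5 TPM under ISM012-042, 1.26, 11.4 and 27.0 TPM under vehicle and 4.89, 7.98 and 9.17 TPM in sham, with 0.52 ± 0.59 for ISM012-042 minus sham (adjusted p = 0.592). Kif20a, a motor of cytokinesis, ran from 2.47 to 24.5 TPM under ISM012-042 and from 0.847 to 21.3 TPM under vehicle, against 4.20 to 8.55 TPM in sham.

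Of the mitotic exit genes, Ube2c (chr2:164769929-164772902), the ubiquitin-conjugating enzyme of the anaphase-promoting complex, was at 8.82, 37.8 and 92.4 TPM under ISM012-042, 4, 36.5 and 84.5 TPM under vehicle and 11.2, 25.8 and 34.8 TPM in sham. Its log2 fold change was 0.39 ± 0.65 for ISM012-042 minus vehicle (adjusted p = 0.681) and 0.49 ± 0.65 for ISM012-042 minus sham (adjusted p = 0.647). Cdc20 (chr4:118432901-118437343), an activator of the same complex, was at 5.03, 20.4 and 48.8 TPM under ISM012-042, 2.53, 17.8 and 38.3 TPM under vehicle and 7.17, 13.9 and 17.1 TPM in sham, with 0.09 ± 0.58 for vehicle minus sham (adjusted p = 0.956). In both genes the lowest ISM012-042 and vehicle libraries were below every sham library and the highest were above every one.

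Mki67 and Top2a, the usual markers of dividing cells, were among the members of widest vehicle values. Mki67 (chr7:135689784-135716450), which coats mitotic chromosomes, was at 7.61, 31.3 and 55.4 TPM under ISM012-042, 2.03, 25.02 and 57.4 TPM under vehicle and 14.5, 19.7 and 25.5 TPM in sham. No vehicle library lay within the sham range, since replicates 1, 2 and 6 were at 43.8, 57.4 and 43.8 TPM and replicates 3, 4 and 5 at 5.74, 6.29 and 2.03 TPM. The log2 fold changes of Mki67 were 0.71 ± 0.64, -0.37 ± 0.64 and 0.33 ± 0.64 in ISM012-042 minus vehicle, vehicle minus sham and ISM012-042 minus sham (adjusted p = 0.461, 0.817 and 0.752). Top2a (chr11:98992947-99024199), the topoisomerase that separates copied chromosomes, was at 10.03, 37.9 and 67.8 TPM under ISM012-042, 2.76, 32.1 and 76.2 TPM under vehicle and 14.7, 21.2 and 28.2 TPM in sham. Its vehicle libraries were likewise either all above or all below the sham range. The log2 fold changes of Top2a in the same order were 0.66 ± 0.66, -0.10 ± 0.66 and 0.56 ± 0.66 (adjusted p = 0.499, 0.961 and 0.601).

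**Figure D3:**
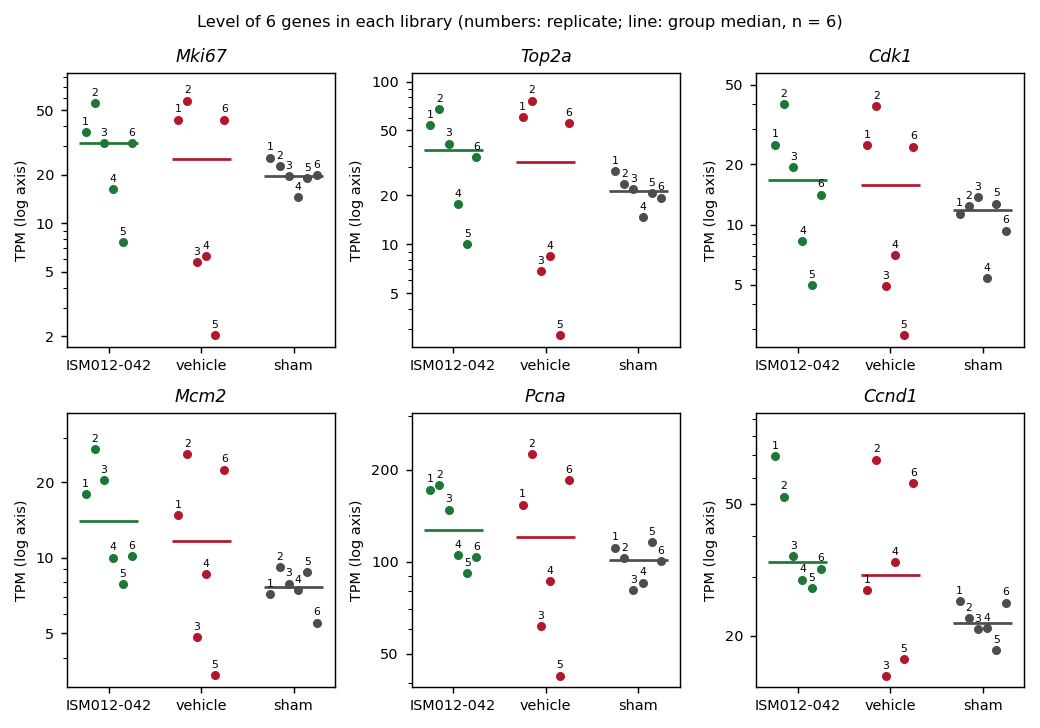
TPM of Mki67, Top2a, Cdk1, Mcm2, Pcna and Ccnd1 on a log axis in each library, with replicate numbers beside the points and a line at each group's median (n = 6). The 6 sham libraries stay within 14.5 to 25.5 TPM for Mki67, where vehicle libraries reach 2.03 and 57.4 TPM and ISM012-042 libraries 7.61 and 55.4 TPM.

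While no member differed in its mean by the test, the members varied more between libraries of the colitis groups than between sham libraries. The SD of log2(TPM + 1) over the 6 libraries had a median over the 36 members of 0.85 under ISM012-042, 1.41 under vehicle and 0.28 in sham, against medians over all genes of 0.30, 0.45 and 0.25. The SD was over 2 times as large in vehicle as in sham for 36 of 36 members, against 40.8% of all genes, and over 2 times as large in ISM012-042 as in sham for 33 of 36, against 25.1% of all genes. It was over 2 times as large in ISM012-042 as in vehicle for 0 of 36, against 4.22% of all genes. It was smaller in ISM012-042 than in vehicle for 35 of 36 members, the exception being Cdt1, while 3857 of the 14129 genes had a larger SD in ISM012-042. The ratio of the highest to the lowest library ran from 1.94 (Pcna) to 12.6 (Plk1) under ISM012-042 and from 4.21 (Cdt1) to 45.3 (Bub1) under vehicle, against 1.30 (Rrm1) to 3.12 (Ube2c) in sham.

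A test of spread, added after seeing the data, used limma on the deviation of each library from its group mean over all genes. In vehicle minus sham it called 34 of 36 members wider, against 17.0% of all genes, and the other two were Cdt1 (adjusted p = 0.0899) and Plk1 (adjusted p = 0.0851). In ISM012-042 minus sham it called 0 of 36 wider, against 0.382% of all genes, with a smallest adjusted p of 0.179, and 0 narrower, against 0.134%. In ISM012-042 minus vehicle it called 1 of 36 narrower, Ccne2 (adjusted p = 0.0296), against 6.41% of all genes, and 0 wider, against 0.934%. The vehicle call depends on how deviations are taken. With deviations from the group median it was 0 of 36 (smallest adjusted p = 0.0831) and no gene of the table was called. Without vehicle replicate 5 it was 21 of 36, and the share of all genes called in that fit is not given here. A two-sided permutation test of the mean absolute deviation from the group median was run for 5 genes in 3 comparisons. It used all 924 regroupings of 6 against 6 libraries and was adjusted over the 15 tests. Deviations were taken from each group's own median before regrouping, so they are not freely exchangeable and the p-values are approximate. The genes shared much of their order of vehicle libraries, so their results are not independent. In vehicle minus sham, Mki67, Top2a and Pcna each had p = 0.00216 (adjusted p = 0.0108), the smallest that these permutations can give. There Cdk1 had a permutation p of 0.00866 (adjusted p = 0.0325) and Ccnd1 one of 0.0281 (adjusted p = 0.0528). In the comparisons with ISM012-042 the lowest adjusted permutation p was 0.0528.

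**Figure D4:**
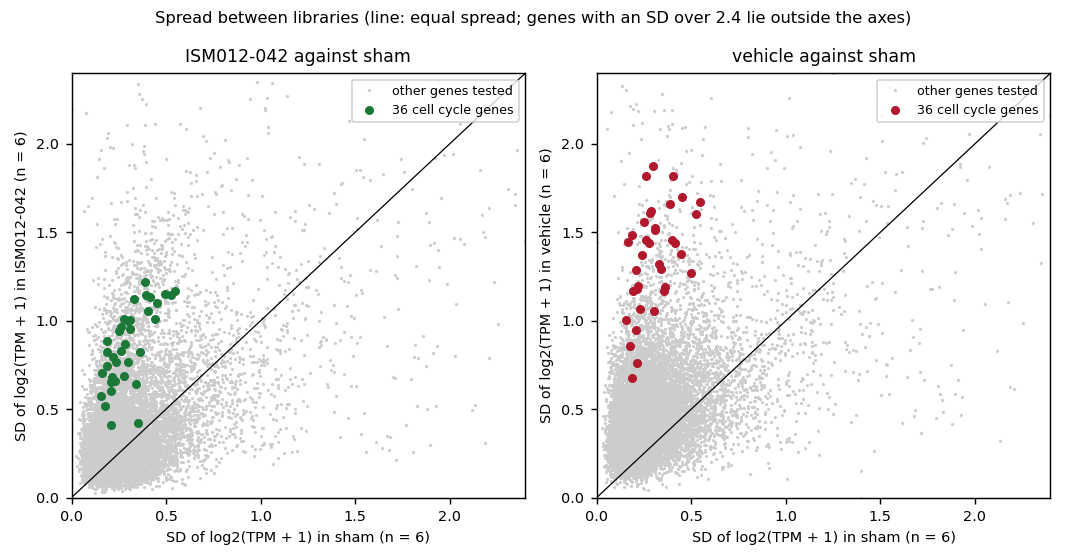
SD of log2(TPM + 1) over 6 libraries in ISM012-042 (left) and in vehicle (right) against the SD in sham, for the 36 genes (large points) and all other genes tested (grey). All 36 lie above the line of equal spread in both panels, with a median SD of 0.85 in ISM012-042 and 1.41 in vehicle, against 0.28 in sham.

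The spread of the members was described by role. In vehicle, the median SD of log2(TPM + 1) was 0.96 for the G1 cyclins and E2F1, 1.19 for origin licensing and helicase, 1.22 for clamp and nucleotide supply, 1.46 for mitotic cyclins and kinases, 1.46 for checkpoint and kinetochore, 1.61 for spindle, 1.56 for mitotic exit and 1.84 for Mki67 and Top2a. These are descriptions of the roles, and their order was not tested. The scale understates the spread of low genes, among them E2f1, Ccne1 and Ccne2. G2 and mitosis genes took 48.2, 54.1, 44.7, 37.6, 28.5 and 51.4% of the members' summed TPM in ISM012-042 replicates 1 to 6. They took 52.3, 49.3, 36.3, 31.95, 26.2 and 48.1% in vehicle replicates 1 to 6, and 46.8, 48.7, 53.3, 36.2, 45.0 and 45.8% in sham replicates 1 to 6. The lowest share in each of the colitis groups was in replicate 5, which also had the lowest summed level. In sham, replicate 4 likewise had both the lowest share and the lowest summed level. The mean log2(TPM + 1) of G2 and mitosis genes minus that of G1 and S phase genes was -0.12 ± 0.42 under ISM012-042, -0.29 ± 0.43 under vehicle and 0.02 ± 0.24 in sham (SD, n = 6 each), and the values of the groups overlapped.

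**Figure D5:**
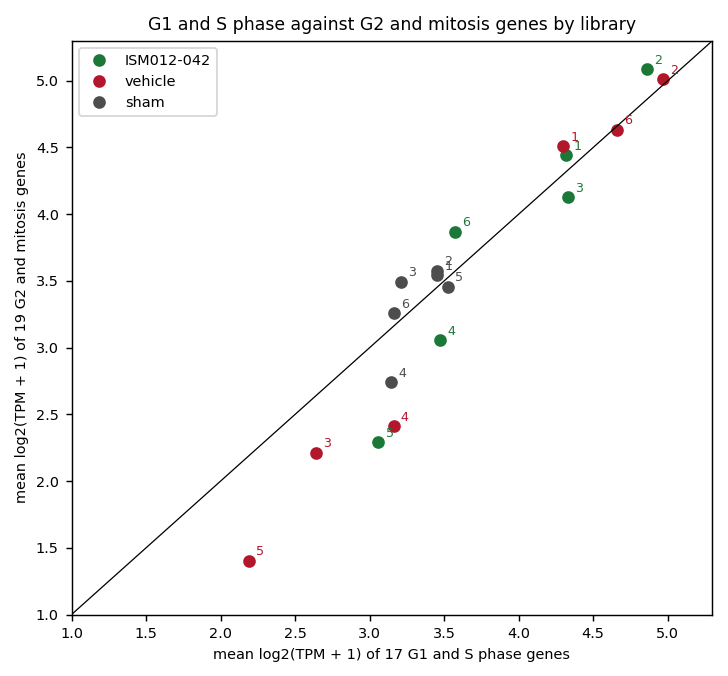
Mean log2(TPM + 1) of the 19 G2 and mitosis genes against that of the 17 G1 and S phase genes in each library, with the line of equal levels. The libraries furthest below the line are ISM012-042 replicates 4 and 5, vehicle replicates 3, 4 and 5 and sham replicate 4.

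In the colitis groups the mitochondrial share mostly ran opposite to the members. Hoxb13 moved with the members in some libraries and not in others. The mitochondrial share of the TPM in replicates 1 to 6 was 33.1, 20.1, 26.9, 35.7, 39.8 and 32.5% under ISM012-042, 26.3, 22.4, 43.1, 45.2, 57.8 and 30.0% under vehicle and 31.2, 29.8, 42.6, 29.4, 35.0 and 34.8% in sham. Within vehicle and ISM012-042 the library of highest members, replicate 2, had the lowest share, and the library of lowest members, replicate 5, had the highest. Vehicle replicates 3, 4 and 5, low for the members, had the higher shares of that group, and replicates 1, 2 and 6 the lower ones. Hoxb13, a gene of the distal colon, was at 8.90, 219, 211, 50.7, 0.329 and 68.8 TPM in ISM012-042 replicates 1 to 6, at 179, 84.5, 3.01, 3.40, 1.52 and 95.6 TPM in vehicle and at 16.1, 218, 238, 288, 230 and 9.05 TPM in sham. Vehicle replicates 3, 4 and 5 were thus low for Hoxb13 as for the members, while sham replicates 1 and 6, with the lowest Hoxb13 of sham, had members' sums of 521 and 426 TPM. ISM012-042 replicate 1 had a members' sum of 1013 TPM with low Hoxb13, and sham replicate 4 had the lowest sham sum, 346 TPM, with the highest Hoxb13 and the lowest mitochondrial share of sham. With Hoxb13 as a covariate, or with the mitochondrial share as one, 0 of 36 members were called wider in vehicle. With mitochondrial genes left out of the total 19 of 36 were called wider, and with scaling to pan-epithelial markers 7 of 36. With the Hoxb13 covariate 2 members were called higher in ISM012-042 minus sham (median log2 fold change 0.89, against 0.28 over all genes). With the mitochondrial covariate 3 were called higher in vehicle minus sham (median 0.33, against -0.026 over all genes). The shares of all genes called wider or higher in these alternative fits are not given here. The counts therefore cannot be read as particular to the members. The part of Hoxb13 level and of mitochondrial share in the members' values was not tested.

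Marker lists of cell types that can divide or dilute dividing cells gave these levels. The 10 pan-epithelial markers, all tested, summed to 8220 to 9804 TPM under ISM012-042, 4761 to 11660 TPM under vehicle and 7748 to 12230 TPM in sham, with the lowest vehicle sum in replicate 5. Vehicle replicates 1, 2 and 6 were at 11660, 9578 and 10020 TPM, and replicates 3, 4 and 5 at 7037, 6148 and 4761 TPM. Under ISM012-042 replicate 2, highest for the members, was at 8369 TPM and replicate 5, lowest for them, at 8863 TPM. The 8 crypt stem and progenitor markers, all tested and 0 called, summed to 136 to 182 TPM under ISM012-042, 67.4 to 156 TPM under vehicle and 72.5 to 142 TPM in sham, with Lgr5 at 1.05 to 3.20, 0.282 to 2.75 and 0.864 to 1.88 TPM in the same groups. The crypt sums were 132, 120 and 156 TPM in vehicle replicates 1, 2 and 6 and 90.7, 109 and 67.4 TPM in replicates 3, 4 and 5. Under ISM012-042 the lowest crypt sum was in replicate 5 and the highest in replicate 1. The 7 neutrophil markers summed to 41.2 to 6671 TPM under ISM012-042, 167 to 24860 TPM under vehicle and 6.48 to 26.5 TPM in sham, and replicate 2 was highest in both colitis groups, as for the members. Vehicle replicates 1, 2 and 6 were above replicates 3, 4 and 5 for neutrophil markers too, and for the monocyte and macrophage markers below. Of the neutrophil markers 3 of 7 were called higher in vehicle minus sham and 0 in the other comparisons. The 7 mature colonocyte markers summed to 4558 to 10150 TPM under ISM012-042, 4838 to 8578 TPM under vehicle and 7213 to 12890 TPM in sham. Of them 5 of 7 were called lower in vehicle minus sham (median log2 fold change -1.51), 2 of 7 in ISM012-042 minus sham (median -1.38) and 0 in ISM012-042 minus vehicle. Of the 6 markers of immature neutrophils, some of which still divide, 1 was tested and 4 had a mean under 1 TPM, with sums of 1.51 to 13.7 TPM under ISM012-042, 2.03 to 87.9 TPM under vehicle and 0.254 to 3.67 TPM in sham. Of the 5 germinal centre B cell markers 3 were tested, with sums of 8.575 to 26.8, 8.35 to 16.5 and 8.95 to 15.4 TPM in ISM012-042, vehicle and sham. Fibroblast markers summed to 396 to 3091, 244 to 851 and 358 to 624 TPM in the same order, again with replicate 2 highest in all groups. B cell markers summed to 5.11 to 526 TPM under ISM012-042, 5.25 to 105 TPM under vehicle and 7.98 to 72.4 TPM in sham. T cell markers summed to 7.07 to 94.8 TPM under ISM012-042, 10.7 to 26.7 TPM under vehicle and 7.45 to 16.2 TPM in sham. Monocyte and macrophage markers summed to 153 to 671 TPM under ISM012-042, 107 to 551 TPM under vehicle and 109 to 175 TPM in sham. For each of these 3 lists the ranges of the groups overlapped. Plasma cell markers summed to 597 to 731 TPM under ISM012-042, 231 to 591 TPM under vehicle and 341 to 780 TPM in sham. Endothelial markers summed to 25.7 to 144 TPM under ISM012-042, 24.01 to 43.5 TPM under vehicle and 13.3 to 24.4 TPM in sham. Smooth muscle markers summed to 1129 to 4031 TPM under ISM012-042, 1172 to 4172 TPM under vehicle and 1641 to 3535 TPM in sham. Adipocyte markers summed to 156 to 3544 TPM under ISM012-042, 30.3 to 2584 TPM under vehicle and 21.8 to 2440 TPM in sham. The plasma cell sums under ISM012-042 all lay above those under vehicle, and the endothelial sums under ISM012-042 all lay above those in sham. Marker by marker, this held for 0 of 5 plasma cell markers, against 0.651% of all genes in that comparison. It held for 2 of 4 endothelial markers, against 3.80% of all genes. Beside those of the neutrophil and mature colonocyte lists, 0 tested markers of these lists were called in any comparison. No marker of these lists was at 0 in every library. The part of each cell type in the members' values was not tested.

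A wider set of 176 cell cycle and replication genes in 8 lists, 174 of them tested, gave 3 calls by limma. In ISM012-042 minus vehicle 0 of 174 were called, as were 0% of all genes, and in ISM012-042 minus sham 1 of 174 was higher, a share close to the 0.545% of all genes. In vehicle minus sham 0 were higher and 2 were lower, both in the list of CDK inhibitors, pocket proteins and arrest genes (2 of 18 tested), where 0.326% of all genes were higher and 4.13% lower, so the calls of the wider set were below that share. Cdkn2b (chr4:89306289-89311032), the inhibitor of Cdk4 and Cdk6 known as p15, was at 29.6, 45.5 and 67.1 TPM under vehicle (lowest, median and highest), against 66.9, 84.5 and 95.8 TPM in sham. Its highest vehicle library thus just reached the lowest sham library. It fell in vehicle by a log2 fold change of -0.85 ± 0.19 (adjusted p = 0.0170). Ccng2 (chr5:93267573-93276231), cyclin G2, known from arrested cells, was at 34.65, 59.6 and 106 TPM under vehicle, against 80.3, 124 and 137 TPM in sham. It fell by -0.89 ± 0.20 (adjusted p = 0.0174), with overlap of the groups. Under ISM012-042 Cdkn2b had a median of 57.1 TPM and Ccng2 one of 66.2 TPM, and the log2 fold change of Ccng2 for ISM012-042 minus sham was -0.76 ± 0.20 (adjusted p = 0.0712). This difference passed the threshold under every other scaling tried, with array weights, with the 2 groups alone, with either covariate and without vehicle replicate 1 or 5, and its adjusted p ran from 0.00014 to 0.160 over all alternatives.

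The wider gene called in ISM012-042 minus sham was Cdc25a (chr9:109875518-109893895), a phosphatase that activates CDKs at the start of S phase. Cdc25a was at 18.55, 20.9 and 26.1 TPM under ISM012-042 (lowest, median and highest), 14.0, 17.02 and 25.8 TPM under vehicle and 9.197, 12.7 and 16.3 TPM in sham. All ISM012-042 libraries were above all sham libraries, as for 3 of the 174 wider genes tested and 3.80% of all genes. It rose by 0.72 ± 0.17 in ISM012-042 over sham (adjusted p = 0.0375), and vehicle minus sham was 0.51 ± 0.17 (adjusted p = 0.0899). The vehicle difference passed the threshold with median-ratio or quantile scaling, with mitochondrial genes left out, with scaling to pan-epithelial markers, with array weights, with the mitochondrial share covariate and without vehicle replicate 1, over an adjusted p of 0.0253 to 0.183. The ISM012-042 call of Cdc25a was lost with median-ratio or quantile scaling, with no filter on low values and without ISM012-042 replicate 1, 2, 4, 5 or 6 or sham replicate 1, 2, 3 or 5, and over all alternatives its adjusted p ran from 0.000264 to 0.102. That of Cdkn2b was lost with median-ratio or quantile scaling, with mitochondrial genes left out and with scaling to pan-epithelial markers, with an adjusted p of up to 0.190, and that of Ccng2 when the 2 groups were fitted alone (0.0598).

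The wider genes also varied between vehicle libraries. In vehicle minus sham 123 of 174 were called wider, against 17.0% of all genes, among them 28 of 40 other origin and fork genes, 47 of 53 other spindle, kinetochore, condensin and cytokinesis genes and 16 of 17 S phase checkpoint and recombination genes. The CDK inhibitors, pocket proteins and arrest genes gave 3 of 18, a share close to the 17.0% of all genes. With deviations from the group median none of these wider genes was called. Their counts under the covariates and other scalings were not taken. They come from the same libraries as the members, so their count is not independent of the members' count. In ISM012-042 minus sham 0 of 174 were called wider, against 0.382% of all genes. In ISM012-042 minus vehicle 11 of 174 were called narrower, a share close to the 6.41% of all genes. The medians of log2 fold change over these lists in ISM012-042 minus vehicle ran from 0.26 to 0.39, beside 0.30 over all genes.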

How the data were processed

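Total RNA of colon was homogenized in TRI Reagent, column purified and reverse transcribed, per the labels' protocols. The authors deposited TPM values, one column per library, and each column sums to the same total. The submitters' processing notes name DRAGEN 4.0.3 and mm10 without a role. The counting method, annotation and strandedness were not given in the sources used here, and overlapping or antisense genes could share reads. Sequencing depth cannot be recovered from TPM, and an abundant class of transcripts lowers all other values.

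Groups and replicate numbers came from the titles, and TNBS from the design text. The members and all lists were chosen with earlier results of these data known. Values were tested as log2(TPM + 1) with limma 3.58.1 in R 4.3.3, all 18 libraries in 1 fit, empirical Bayes with trend and robust settings, and Benjamini-Hochberg adjustment over the 14129 genes that reached a TPM of 1 in 6 or more libraries. Fold changes were named for 5 fixed members, for the member of smallest p in each role and comparison, and for called genes of the wider lists. The spread test took absolute deviations from group means, scaled for n, and was added after seeing the data. Scripts were tested on simulated data. Alternatives covered the pseudocount, filter, scaling, samples in the fit, covariates, array weights, a replicate block and leaving out each library. Of the wider symbols, 4 were matched through RefSeq synonyms. Coordinates, 1-based, and promoter windows came from RefSeq, GRCm38.p6.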

Additional observations from a re-analysis of the deposited data

Results flagged for a closer look

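Within each group of 6 libraries, the highest and the lowest value of every member were compared with the rest on the log2(TPM + 1) scale, with Dixon's 95% critical value for 6 samples. Of 108 groups examined, 3 held a library that stood apart, and chance flags about 1 in 20 groups. All 3 were low sham libraries. Mcm4, a helicase subunit, was at 2.95 in sham replicate 3, where the nearest other sham library was at 3.32. Ccna2 (cyclin A) was at 3.52 in sham replicate 4, against 4.38 in the nearest other sham library. Ccnb1 (cyclin B1) was at 2.68 in the same sham replicate 4, against 3.53 in the nearest other one. Sham replicate 4 was the lowest sham library in 22 of the 36 members and had the highest Hoxb13 level of the study, 288 TPM. The part of Hoxb13 level in these values was not tested.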

How the results depend on the processing

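Of 2263 results for single genes under an alternative, 2112 kept their direction and side of the threshold. With the sign kept, 50 lost a call and 32 gained one. Another 69 reversed in sign and are counted only as reversed, also where a call was lost. An example is the spread of Mki67 in vehicle minus sham with the mitochondrial share covariate. The cause of these changes was not tested. Members called higher in ISM012-042 minus sham numbered 1 with the 2 groups alone, 1 with array weights, 2 with the Hoxb13 covariate and 1 with pan-epithelial scaling, and in vehicle minus sham 3 with the mitochondrial share covariate, where the main count was 0. Members of wider spread in vehicle minus sham numbered 20 with median-ratio scaling, 20 with quantile normalization and 19 with mitochondrial genes left out. They numbered 7 with pan-epithelial scaling and 0 with the Hoxb13 covariate, the mitochondrial share covariate or deviations from the median. When a library was left out they numbered 21 to 34. The members' median difference of spread was 0.75 with median-ratio scaling (0.078 over all genes). It was 0.081 with the Hoxb13 covariate (0.0345) and -0.083 with the mitochondrial share covariate (0.030). Shares of all genes called in these fits are not given here, so the counts in this paragraph cannot be read as particular to the members. Members of narrower spread in ISM012-042 minus vehicle numbered 2 with no filter, 2 with a TPM minimum of 5, 9 with plain empirical Bayes, 0 with mitochondrial genes left out, 0 with the 2 groups alone, 0 with pan-epithelial scaling, 0 with deviations from the median, 0 with either covariate and 0 to 14 when a library was left out.

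Reversed values are log2 fold changes. With array weights, ISM012-042 minus vehicle gave Aurkb -0.51, Ccnd1 -0.16, Cdk1 -0.66, Cenpf -0.27, Dnmt1 -0.071, E2f1 -0.25, Kif11 -0.47, Mcm2 -0.33, Mki67 -0.38, Ncapd2 -0.22, Pcna -0.28, Top2a -0.51, Tyms -0.30 and Ube2c -0.75. With the same weights, vehicle minus sham gave Cenpf 0.25, Ckap2 0.053, Kif11 0.43, Mki67 0.34 and Top2a 0.64, and ISM012-042 minus sham gave Cdk1 -0.0073, Mki67 -0.0395 and Ube2c -0.0407. With the Hoxb13 covariate, vehicle minus sham gave Cenpf 0.21, Ckap2 0.19, Kif11 0.42, Mki67 0.33 and Top2a 0.61. With the mitochondrial share covariate, ISM012-042 minus vehicle gave Cdk1 -0.14, Pcna -0.0169 and Ube2c -0.15, vehicle minus sham gave Kif11 0.0384 and Top2a 0.13, and ISM012-042 minus sham gave Mki67 -0.0252. Without both libraries of highest neutrophil markers, vehicle minus sham gave Cdc20 -0.19, Cdk1 -0.14 and Pcna -0.10. Median-ratio scaling gave Ccnd1 -0.0315 and Pcna -0.0631 in ISM012-042 minus vehicle. In vehicle minus sham, a pseudocount of 5 gave Kif11 0.0518 and Top2a 0.0587, and pan-epithelial scaling gave Kif11 0.0386 and Top2a 0.16. Differences of spread reversed with the Hoxb13 covariate in ISM012-042 minus sham (Mki67 -0.28, Pcna -0.0251, Top2a -0.19). With the mitochondrial share covariate they reversed in vehicle minus sham (Cdk1 -0.29, Mki67 -0.0416, Top2a -0.0456) and in ISM012-042 minus sham (Cdk1 -0.19, Pcna -0.0093).

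Leaving out 1 library moved vehicle minus sham over -0.14 to 0.54 for Cdk1, -0.19 to 0.51 for Cdc20, -0.10 to 0.38 for Pcna, -0.48 to 0.39 for Top2a, -0.51 to 0.25 for Kif11, -0.74 to 0.11 for Mki67 and -0.52 to 0.0242 for Cenpf, with the lowest value without vehicle replicate 2 and the highest without vehicle replicate 5 in each. It moved ISM012-042 minus vehicle over -0.0335 to 0.65 for Cdk1 and -0.0912 to 0.75 for Ube2c, with the lowest value without vehicle replicate 5. The labels do not say whether replicate numbers pair the samples, and the correlations of same-numbered deviations cannot settle it. These ran from -0.38 to 0.609. They were over 0.1 in 2 of 6 pairs of ISM012-042 and vehicle (0.609 for replicate 2 and 0.421 for replicate 5). The same held for 1 of 6 of vehicle and sham and 3 of 6 of ISM012-042 and sham. A replicate block gave 0 members called in each comparison and left Cdc25a without a call.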
